A study of Homo sapiens with 6 samples.

Results

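The genes described here are 40 core autophagy genes and autophagy receptors, taken by gene name from a table of 58735 genes; each of the 40 names matched 1 row. They were measured by RNA sequencing in SKM-1, an established human line from acute myeloid leukaemia, in 3 libraries from 48 h of celastrol and 3 from 48 h of DMSO. Celastrol is a plant triterpenoid, and DMSO is the usual solvent for such compounds. The sources used here give no celastrol dose, no genotype or further agent is named, and both groups were grown in the same serum-containing medium. The labels do not state whether libraries of one treatment came from independent cultures, so the p-values refer to the spread among these libraries, which may be technical.

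Autophagy carries cytoplasmic material to the lysosome inside a double-membraned vesicle, the autophagosome. The ULK1 kinase complex starts the process under the control of the nutrient sensor mTORC1, the VPS34 lipid kinase complex marks the nascent membrane, and lipid transfer proteins enlarge it. A ubiquitin-like conjugation system then attaches ATG8 proteins (the LC3 and GABARAP families) to the membrane, where receptors such as p62 tether selected cargo. Much of this pathway is controlled by phosphorylation and protein turnover, which mRNA levels do not show. In bulk RNA, a change in the mix of cells and a change in RNA per cell cannot be told apart.

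Values are FPKM, that is fragments divided by gene length in kilobases and by a library total set by the authors. The reads behind them, recovered from the values, numbered 15231742 to 16231066 per celastrol library and 13549187 to 15410904 per DMSO library. Of 10 leukocyte and myeloid markers 5 averaged at least 1 FPKM, and their summed level was 57.0 to 62.8 FPKM with celastrol and 71.4 to 79.3 with DMSO. Of these 5, LYZ was 2.15-fold and ITGAM 1.75-fold lower with celastrol (adjusted p = 0.000136 and 0.00721), and PTPRC, SPI1 and CD33 were not called. The myeloid enzyme MPO stayed at or below 0.0337 FPKM, and CD14, CSF1R, CEBPA and ANPEP also averaged below 1. All 10 erythroid markers were above that level, 8 of them lower with celastrol, beside 14.2% of all tested genes. Their summed level was 466 to 518 FPKM against 589 to 602. Of the 8, SLC4A1 and AHSP averaged 0.347 and 0.399 FPKM with celastrol and reached a mean of 1 only through the DMSO libraries. RHAG held the largest part of the sum, at a mean of 290 FPKM against 261, and like TAL1 was not called. Lymphoid markers summed to 15.4 to 15.9 against 8.42 to 10.4 FPKM with MS4A1 at 0 in every library. Of 3 lymphoid markers tested, NKG7 (5.58-fold) and CD3D (1.36-fold) were higher (adjusted p = 0.00341 and 0.0139), beside 15.3% of all tested genes. NKG7 averaged 0.813 FPKM with DMSO, from 4 to 15 reads, and reached a mean of 1 FPKM only through the celastrol libraries. Its fold is therefore uncertain. Epithelial and stromal markers summed to 21.3 to 23.0 against 36.0 to 39.97. Most of this sum was EPCAM, at a mean of 15.6 FPKM with celastrol and 32.0 with DMSO (adjusted p = 0.000163). PECAM1, at 6.01 against 5.45, was not called, and CDH1, COL1A1, COL3A1 and DCN averaged below 1. Mitochondrial genes held 1.37% to 1.85% of the reads in the celastrol libraries and 5.44% to 5.65% in the DMSO libraries. What the marker and mitochondrial shifts contribute to the autophagy values was not tested.

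Autophagy genes were broadly expressed. The share of them called higher was near that of all genes and the share called lower was below it, differences that were not tested. A mean of at least 1 FPKM over the 6 libraries was required for testing, which 37 of the 40 genes met; ULK2, MAP1LC3A and GABARAP did not. Log2(FPKM + 0.1) values were compared with limma-trend over all 12685 genes that met it, and genes with a Benjamini-Hochberg adjusted p under 0.05 were called. With celastrol 6 of the 37 were called higher, where 15.3% of all tested genes were, and 2 were called lower, where 14.2% were. Together these 8 are 21.6% of the tested autophagy genes, against 29.5% of all tested genes. The genes called higher were BNIP3, GABARAPL1, PIK3R4, BECN1, ATG2A and ATG9A, and those called lower were CALCOCO2 and ATG2B. No autophagy gene changed by as much as 2-fold: the log2 fold changes ran from -0.61 for CALCOCO2 to 0.69 for BNIP3. Their median was 0.11, beside 0.02 for all genes tested. Of the 37, 25 were above 0 and 12 below, and 24 were above the median of all genes. The split around 0 is not given here for all tested genes. By step, the medians were -0.06 for initiation, 0.16 for nucleation, 0.11 for membrane growth (labelled expansion in the plots), 0.06 for conjugation, 0.26 for ATG8 proteins and 0.16 for receptors.

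The library values of the treatments did not overlap for 20 of the 37 genes (54.1%), which compares with 47.3% of all tested genes. Of these 20, 13 were higher and 7 lower with celastrol, a split by direction that is not given here for all tested genes. The number called depended on scaling and on single libraries. Rescaling to TPM gave 20 higher and 2 lower autophagy genes (all genes: 5266 and 813), and scaling to the reads listed in the table gave 11 and 2 (all genes: 3024 and 1295). These scalings moved the median of all genes by 0.24 and 0.10 on the log2 scale. Under each, 24 of the 37 autophagy genes lay above that median, as in the deposited values. With single libraries left out, that count ranged from 20 (without celastrol replicate 3 or DMSO replicate 1) to 27 (without DMSO replicate 2). TPM also turned 8 uncalled genes from below to above 0: ULK1, RB1CC1, ATG13, AMBRA1, WIPI1, ATG10, MAP1LC3B and NBR1. Leaving out celastrol replicate 2 gave 3 higher and 2 lower (all genes: 1119 and 1137), leaving out celastrol replicate 3 gave 3 and 3 (1211 and 1284), and leaving out DMSO replicate 2 gave 5 and 4 (1948 and 1766). With no filter on low values there were 3 higher and 2 lower (1314 and 1331).

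**Figure D1:**
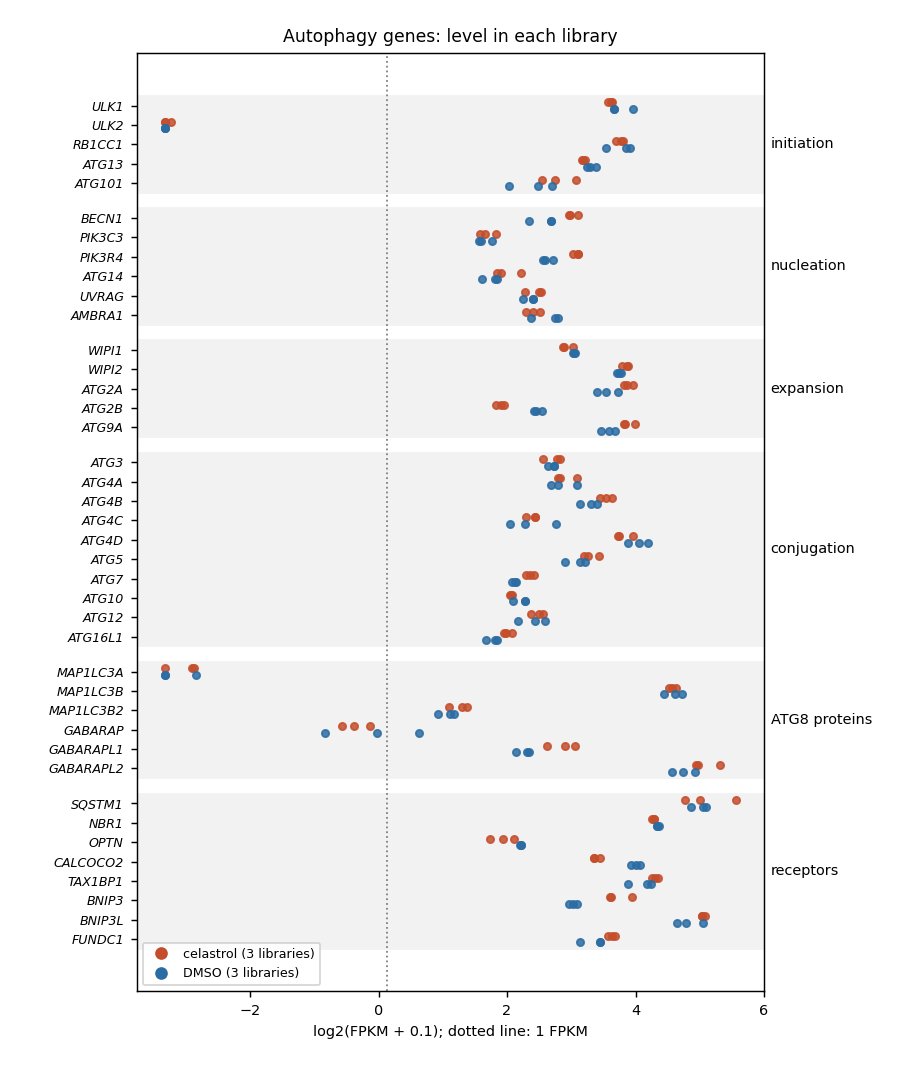
Level of each of the 40 autophagy genes in each library as log2(FPKM + 0.1), with genes on the vertical axis grouped by step; orange points are the 3 celastrol and blue points the 3 DMSO libraries, and the dotted line marks 1 FPKM. ULK2 and MAP1LC3A lie at the left edge with at most 1 read per library, and GABARAPL2, SQSTM1 and BNIP3L are among the highest.

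Of the initiation genes, 0 of 4 tested were called in either direction by limma, beside 29.5% of all tested genes. At an unadjusted p under 0.05 there were 0, a threshold for which the share of all tested genes is not given here. Limma-voom also called 0, where it called 18.2% of all tested genes higher and 16.8% lower. ULK1, the kinase that begins autophagosome formation, lay at 12.1, 12.3 and 11.8 FPKM in celastrol replicates 1 to 3 and at 15.5, 12.6 and 12.6 in DMSO replicates 1 to 3. Every celastrol value was below every DMSO value, but 2 DMSO libraries were within 1 FPKM of the celastrol libraries and 1 stood higher. Its log2 fold change was -0.16 (95% interval -0.38 to 0.06, adjusted p = 0.227). The related kinase ULK2 had 1 read in 1 celastrol library and 0 reads in the others. Between ULK1 and ULK2, almost all of the mRNA was therefore that of ULK1, and other ULK-family genes were not examined. RB1CC1, which encodes the scaffold FIP200, averaged 13.4 ± 0.525 FPKM in the celastrol libraries and 13.6 ± 1.79 in the DMSO libraries (SD, n = 3 each), a log2 fold change of -0.01 (95% interval -0.25 to 0.23). The adaptor ATG13 was at 8.92 to 9.15 FPKM against 9.36 to 10.4, without overlap, at a log2 fold change of -0.12 (95% interval -0.28 to 0.04). Its partner ATG101 varied most, from 5.72 to 8.35 FPKM with celastrol and from 3.99 to 6.43 with DMSO (adjusted p = 0.175). Summed over the step, the level of the 5 genes was 41.4 ± 1.30 against 42.3 ± 1.26 FPKM (SD, n = 3).

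Nucleation genes encode the VPS34 lipid kinase complex, and 2 of 6 were called, both higher, a count to be read against 15.3% higher and 14.2% lower of all tested genes. PIK3R4, the VPS15 regulatory subunit (chromosome 3, 130678935 to 130746829), lay at 8.50, 8.48 and 8.07 FPKM in the celastrol libraries and 5.94, 5.77 and 6.47 in the DMSO libraries. The groups were clearly separated, each with a narrow spread. The gene was 1.38-fold higher with celastrol (log2 fold change 0.46, SE 0.08, adjusted p = 0.00471), a call kept under all 16 alternative settings. BECN1, the Beclin 1 scaffold (chromosome 17, 42810134 to 42833350), lay at 7.78, 7.68 and 8.46 FPKM against 6.32, 4.98 and 6.30. Its DMSO replicate 2 was the lowest library, and the groups did not overlap. Other genes cover 17.1% of the exon bases of BECN1 on the opposite strand. Of these, PSME3 covers 4.68% and averaged 40.7 FPKM with celastrol and 35.3 with DMSO. Any part of this overlap in the BECN1 values was not tested. The log2 fold change of BECN1 was 0.44 (SE 0.11, adjusted p = 0.0200), and the call was lost with no filter on low values (0.0613), without celastrol replicate 2 (0.0515) and without celastrol replicate 3 (0.0670).

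PIK3C3, which encodes VPS34 itself, averaged 3.13 ± 0.279 against 3.03 ± 0.241 FPKM (SD, n = 3), a log2 fold change of 0.04 (95% interval -0.22 to 0.31). Within a library, the ratio of PIK3R4 to PIK3C3, which no scaling of the library can alter, was 2.79, 2.93 and 2.35 with celastrol and 2.07, 1.99 and 1.96 with DMSO; this difference was not tested. The complex-defining subunits were also uncalled. ATG14, which directs the kinase to autophagosome sites, was at a log2 fold change of 0.23 (adjusted p = 0.213), and UVRAG, which serves endosomal traffic, at 0.08 (adjusted p = 0.549). AMBRA1, a Beclin 1 regulator, was at -0.23 (adjusted p = 0.199) and was called lower without DMSO replicate 2 (0.0280).

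The genes for membrane supply and growth held opposite changes in a pair of paralogs. Of 5 tested, 2 were called higher and 1 lower, beside 15.3% and 14.2% of all tested genes. ATG2A and ATG2B encode bridge-like proteins that carry lipid into the growing membrane. ATG2B (chromosome 14, 96279202 to 96363870) lay at 3.65, 3.77 and 3.47 FPKM with celastrol and 5.23, 5.72 and 5.36 with DMSO. All celastrol libraries were low and all DMSO libraries high, with a gap wider than either spread. It was 1.5-fold lower with celastrol (log2 fold change -0.57, SE 0.08, adjusted p = 0.00272), and called under all 15 alternatives in which it was tested.

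ATG2A (chromosome 11, 64894546 to 64917248) lay at 14.0, 14.5 and 15.5 FPKM with celastrol and 13.1, 10.5 and 11.5 with DMSO. Here the celastrol libraries were the higher ones, and DMSO replicate 1 came close to them. The log2 fold change was 0.33 (SE 0.10, adjusted p = 0.0376), and the call held under 8 of 16 alternatives, with adjusted p-values from 0.00181 to 0.114; it was lost without each library except DMSO replicate 1. The ratio of ATG2A to ATG2B within a library was 3.83, 3.86 and 4.47 with celastrol and 2.51, 1.83 and 2.15 with DMSO. Per length, the mix of the paralogs therefore shifted toward ATG2A in every celastrol library relative to every DMSO library. This was 1 of 7 ratios computed after the values were seen, and none of them was tested.

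ATG9A, the scramblase of the vesicles that seed the membrane, lay at 15.7, 14.3 and 14.0 FPKM with celastrol and 12.0, 10.9 and 12.7 with DMSO. The groups did not overlap, and the log2 fold change was 0.30 (SE 0.09, adjusted p = 0.0342). That call held under 7 of 16 alternatives and was lost without each of the 6 libraries in turn (adjusted p = 0.0538 to 0.111). A further annotated gene shares 38.8% of the exon bases of ATG9A on the same strand, so reads there could be assigned to either gene or to none. The lipid-binding WIPI proteins, which read the VPS34 product, showed no called change. WIPI1 was at a log2 fold change of -0.11 (95% interval -0.28 to 0.06) and WIPI2 at 0.11 (95% interval -0.05 to 0.26).

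**Figure D2:**
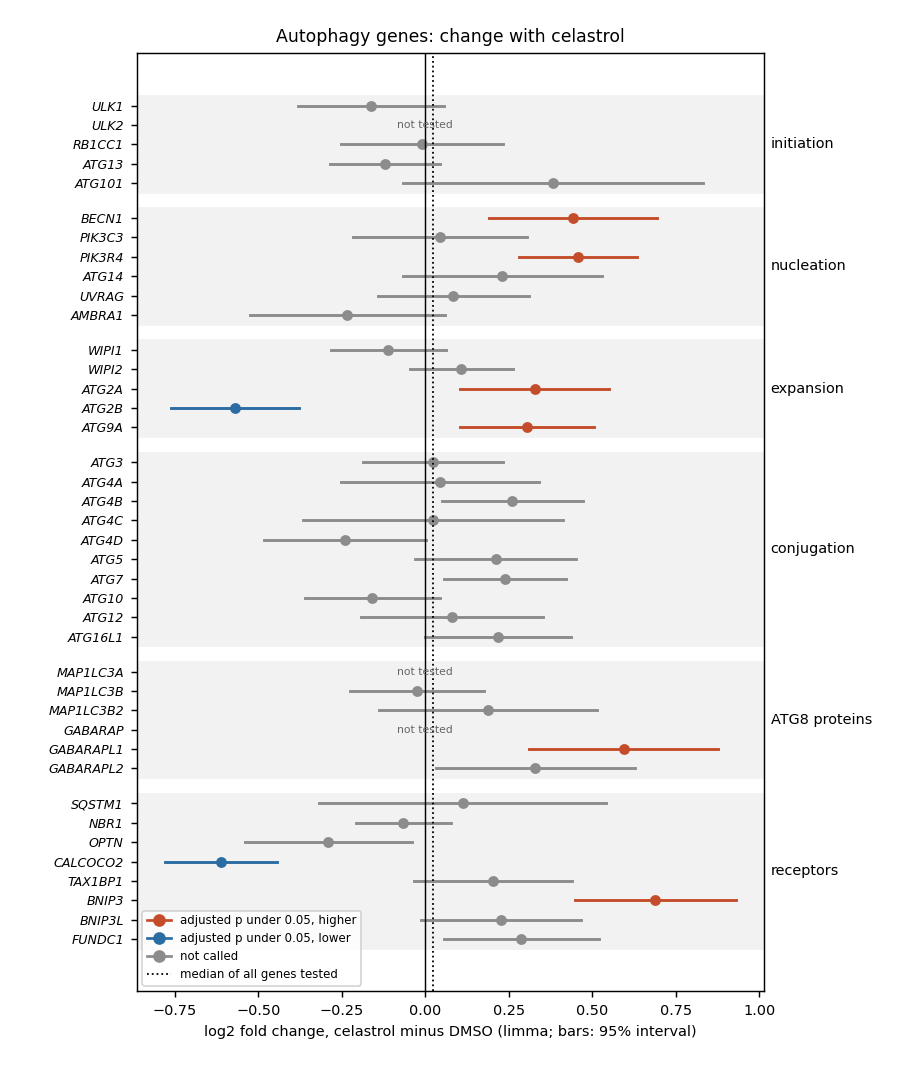
Log2 fold change of each autophagy gene, celastrol minus DMSO, from limma with its 95% interval as a bar; orange and blue mark genes called higher and lower, grey marks genes not called, and the dotted line is the median of all genes tested. The interval of BNIP3 runs from 0.45 to 0.93 and that of CALCOCO2 from -0.78 to -0.44, while all 10 conjugation genes are grey.

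Conjugation genes, the enzymes that prepare and attach ATG8 proteins, were tested in full. By limma 0 of 10 were called (0 higher and 0 lower), beside 15.3% higher and 14.2% lower of all tested genes. At an unadjusted p under 0.05, for which the share of all tested genes is not given here, there were 3, all higher: ATG4B, ATG7 and ATG16L1. Of these, limma-voom on the recovered reads called ATG4B and ATG7, where it called 18.2% of all tested genes higher. ATG7, the E1-like activating enzyme of both conjugation systems, lay at 4.81, 5.00 and 5.23 FPKM with celastrol and 4.10, 4.28 and 4.31 with DMSO. The groups were separated but close, at a log2 fold change of 0.24 (SE 0.08, adjusted p = 0.0557). It passed under 4 of 15 alternatives: TPM, both scalings to reads and limma-voom. ATG7 shares 18.1% of its exon bases with VGLL4 on the opposite strand.

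The E2-like enzymes ATG3 and ATG10 lay at log2 fold changes of 0.02 and -0.16 (adjusted p = 0.866 and 0.207). ATG5 and ATG12, which are joined to each other, lay at 0.21 and 0.08 (adjusted p = 0.163 and 0.642), and their membrane partner ATG16L1 at 0.22 (adjusted p = 0.120). The ATG4 proteases trim ATG8 proteins before conjugation and release them afterwards. Of these 4, limma called 0, beside 29.5% of all tested genes. ATG4B, the most active of them on LC3, averaged 11.6 ± 0.709 FPKM with celastrol and 9.64 ± 0.872 with DMSO (adjusted p = 0.0650), and was called under 6 of 16 alternatives. ATG4D averaged 13.9 ± 1.29 against 16.5 ± 1.79 (adjusted p = 0.121), and was called lower without DMSO replicate 2 (0.0477), while its log2 fold change under TPM was -0.00085. Within a library the ratio of ATG4B to ATG4D was 0.821, 0.881 and 0.796 with celastrol and 0.629, 0.594 and 0.538 with DMSO, a difference that was not tested. ATG4A and ATG4C were at log2 fold changes of 0.04 and 0.02, with 95% intervals of -0.25 to 0.34 and -0.37 to 0.41. Summed over the step, the level was 72.7 ± 4.14 FPKM against 70.6 ± 3.47 (SD, n = 3).

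Among the ATG8 genes as listed, GABARAPL2 and MAP1LC3B had the highest FPKM. Of 4 tested, 1 was called higher, GABARAPL1, and 0 lower, beside 15.3% and 14.2% of all tested genes. The level of GABARAP is uncertain because its exons overlap other genes, so the ranking and the shares of the ATG8 sum hold for the listed values. The LC3 and GABARAP proteins coat the autophagosome membrane and bind receptors. GABARAPL1 (chromosome 12, 10212458 to 10223130) lay at 6.03, 7.37 and 8.21 FPKM with celastrol and 4.84, 4.33 and 4.96 with DMSO. Every celastrol library was above every DMSO library, with more spread among the former. It was 1.53-fold higher (log2 fold change 0.59, SE 0.12, adjusted p = 0.0105) and called under all 16 alternatives. GABARAPL2 lay at 31.3, 30.7 and 39.7 FPKM against 23.6, 30.4 and 26.7. Celastrol replicate 3 stood well above the other libraries, celastrol replicate 2 was barely above DMSO replicate 2, and the log2 fold change of 0.33 was not called (SE 0.13, adjusted p = 0.0909). It was called after rescaling to TPM (adjusted p = 0.00860), with listed reads as the total (0.0404) and by limma-voom (0.0279).

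MAP1LC3B, the LC3 gene most used as an autophagy marker, lay at 23.6, 22.7 and 24.5 FPKM with celastrol and 21.7, 26.4 and 24.3 with DMSO. The groups overlapped fully, and the log2 fold change was -0.03 (95% interval -0.23 to 0.17, adjusted p = 0.845). Its direction turned above 0 under TPM and both scalings to reads, and without celastrol replicate 2 or DMSO replicate 2. Its share of the summed ATG8 FPKM was 35.0 ± 2.19% with celastrol and 41.1 ± 0.249% with DMSO (SD, n = 3). The share of GABARAPL1 was 10.6 ± 1.13% against 8.10 ± 1.21%, and that of GABARAPL2 49.9 ± 2.44% against 45.8 ± 1.62%. The ratio of GABARAPL1 to MAP1LC3B in a library was 0.256, 0.324 and 0.334 with celastrol and 0.224, 0.164 and 0.204 with DMSO, without overlap. The ratio of GABARAPL1 to GABARAPL2 did overlap, at 0.193, 0.240 and 0.207 with celastrol and 0.205, 0.143 and 0.185 with DMSO.

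MAP1LC3B2 is an almost exact copy of MAP1LC3B, which the start of their coding sequences shows. Coding bases 1 to 90 of each are given 5′ to 3′ from GENCODE release 29, with the differing base in capitals.
MAP1LC3B: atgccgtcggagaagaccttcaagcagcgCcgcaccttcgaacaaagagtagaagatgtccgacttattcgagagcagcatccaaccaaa
MAP1LC3B2: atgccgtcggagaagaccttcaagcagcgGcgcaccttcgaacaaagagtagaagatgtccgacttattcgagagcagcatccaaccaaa

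Over the whole 375 coding bases these copies differ at 2, and 307 consecutive bases are identical. Reads within that stretch carry nothing that assigns them to one copy. MAP1LC3B2 had 43 to 70 reads per library, at 2.30 ± 0.237 FPKM against 2.01 ± 0.182, and its value is therefore uncertain (log2 fold change 0.19, adjusted p = 0.344). GABARAPL1 and GABARAPL2, by contrast, share 61.8% of aligned coding bases, and the first 60 bases show how readily their reads can be told apart, with differing bases in capitals.
GABARAPL1: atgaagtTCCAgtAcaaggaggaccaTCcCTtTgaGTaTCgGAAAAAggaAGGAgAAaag
GABARAPL2: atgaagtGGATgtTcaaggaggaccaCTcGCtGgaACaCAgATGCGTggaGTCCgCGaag

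GABARAP itself was listed at only 0.577 to 0.811 FPKM with celastrol and 0.460 to 1.45 with DMSO, from 15 to 49 reads, and was not tested. In the annotation, other genes cover 55.7% of its exon bases, 30.5% on the same strand and 25.2% on the opposite one, more than for any other of the 40 genes. The same-strand neighbour, AC120057.2, had 0 FPKM in every library. The sources used here do not state how reads in such overlaps were counted, and the part of this overlap in the low value was not tested. MAP1LC3A had at most 1 read in a library.

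**Figure D3:**
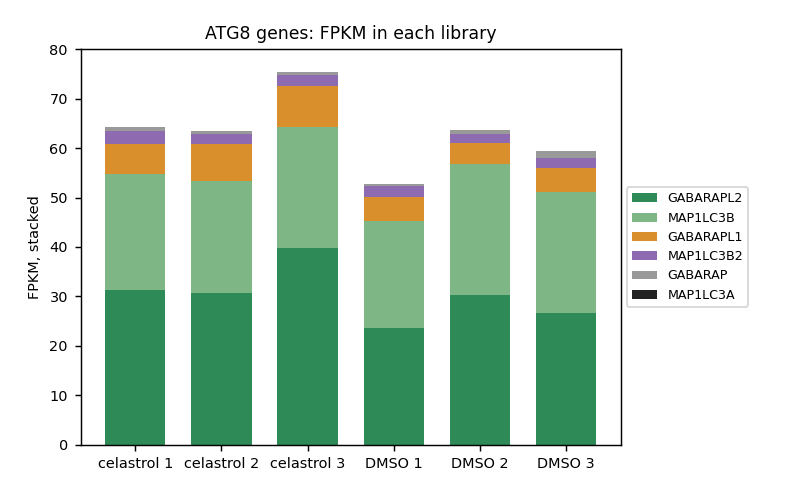
FPKM of the 6 ATG8 genes stacked in each library, so that bar height is their summed level. The celastrol bars reach 64.3, 63.5 and 75.4 and the DMSO bars 52.8, 63.7 and 59.5, and the GABARAPL1 segment is thicker in each celastrol bar.

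Receptors, which link cargo to ATG8 proteins, had 1 of 8 higher and 1 lower, beside 15.3% and 14.2% of all tested genes. BNIP3, a mitophagy receptor of the outer mitochondrial membrane that hypoxia is known to induce (chromosome 10, 131966455 to 131982013), lay at 12.1, 12.1 and 15.2 FPKM with celastrol and 8.09, 8.38 and 7.73 with DMSO. The DMSO libraries were tightly grouped and all celastrol libraries were higher. It was 1.63-fold higher (log2 fold change 0.69, SE 0.10, adjusted p = 0.00319), the largest change among the autophagy genes, and kept its call under all 16 alternatives. Its paralog BNIP3L, or NIX, which clears mitochondria from maturing red cells, lay at 32.8, 32.5 and 33.8 FPKM against 24.9, 32.9 and 27.5. DMSO replicate 2 was as high as the celastrol libraries, and the log2 fold change of 0.23 was not called (adjusted p = 0.138). BNIP3L was called higher without that library (0.0164) and under TPM (0.0115). The third mitophagy receptor, FUNDC1, lay at 11.8, 12.4 and 12.8 FPKM against 8.69, 10.8 and 10.8. Its groups did not overlap, and its log2 fold change of 0.29 missed the threshold (adjusted p = 0.0649). FUNDC1 passed under 4 of 16 alternatives: a minimum mean of 5 FPKM, TPM and both scalings to reads.

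CALCOCO2, or NDP52, a receptor for ubiquitin-coated bacteria and mitochondria (chromosome 17, 48830988 to 48866522), lay at 10.2, 10.8 and 10.2 FPKM with celastrol and 15.1, 16.7 and 16.0 with DMSO. Both groups were narrow and far apart. It was 1.53-fold lower with celastrol (log2 fold change -0.61, SE 0.07, adjusted p = 0.00118), and called under all 16 alternatives. TAX1BP1, its closest relative among the receptors, lay at 18.9, 19.7 and 20.3 FPKM against 14.7, 18.9 and 17.9, and its log2 fold change of 0.20 was not called (adjusted p = 0.173). The ratio of TAX1BP1 to CALCOCO2 was 1.86, 1.82 and 2.00 in the celastrol libraries and 0.972, 1.13 and 1.12 in the DMSO libraries. The mRNAs were thus near equal per length in DMSO, and TAX1BP1 was the more abundant with celastrol.

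SQSTM1, which encodes p62, the ubiquitin-binding receptor that is itself degraded by autophagy, lay at 27.3, 32.0 and 47.1 FPKM with celastrol and 32.9, 28.9 and 34.2 with DMSO. Celastrol replicate 1 was the lowest library of all and replicate 3 the highest. The log2 fold change of 0.11 had a wide 95% interval of -0.32 to 0.54 (adjusted p = 0.682), and without celastrol replicate 3 it was -0.11. NQO1, like SQSTM1 a known target of the antioxidant factor NRF2, was likewise highest in celastrol replicate 3. It lay at 58.0, 72.6 and 105 FPKM with celastrol and 26.4 to 28.9 with DMSO, without overlap, unlike SQSTM1. NQO1 was named after its values were seen, and a link between these genes was not tested. MRNIP covers 20.7% of the exon bases of SQSTM1 on the opposite strand, at a mean of 3.5 FPKM with celastrol and 4.24 with DMSO. NBR1, a p62-like receptor, lay at 19.0 to 19.5 FPKM with celastrol and 20.0 to 20.6 with DMSO (log2 fold change -0.07, 95% interval -0.21 to 0.08). OPTN, the mitophagy receptor optineurin, lay at 3.24, 3.72 and 4.20 FPKM against 4.52, 4.57 and 4.56. All its celastrol values were below the DMSO values, and its log2 fold change of -0.29 was not called (adjusted p = 0.0792), except without celastrol replicate 3 (0.0458).

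**Figure D4:**
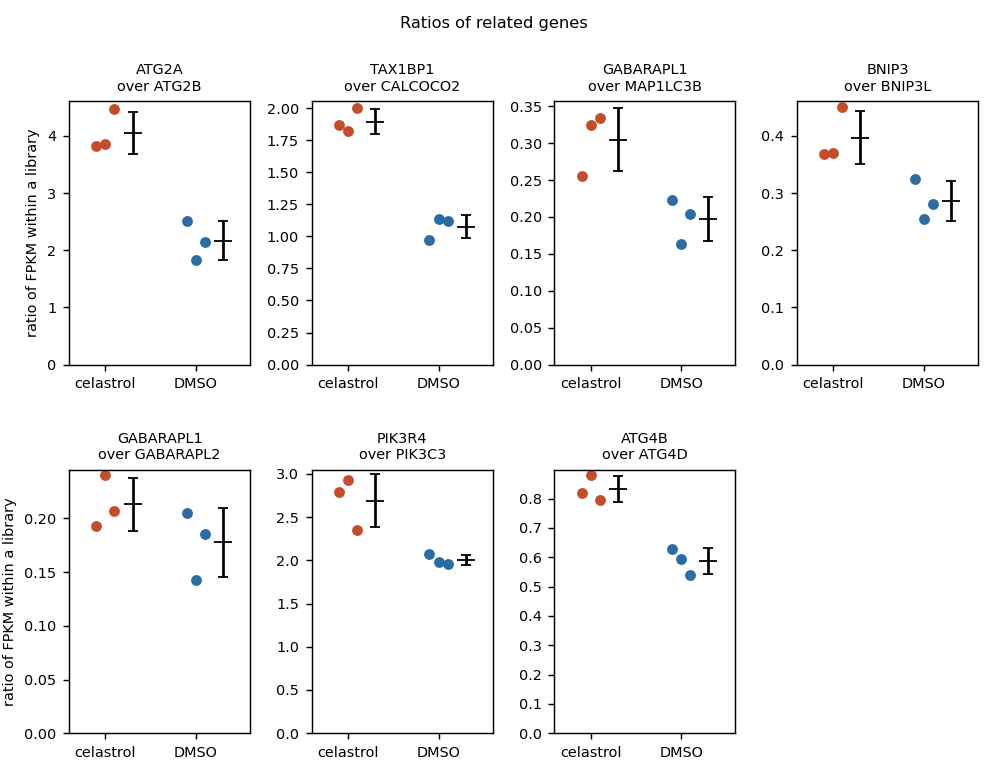
Ratio of FPKM of related or paired genes within each library, from 0, with orange points for the 3 celastrol and blue points for the 3 DMSO libraries and black marks for mean and SD. GABARAPL1 over GABARAPL2 overlaps between treatments and the other 6 ratios do not; ATG2A over ATG2B averages 4.05 ± 0.362 with celastrol and 2.17 ± 0.339 with DMSO, and BNIP3 over BNIP3L 0.397 ± 0.0465 and 0.287 ± 0.0350.

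The promoters of the 40 genes were searched for short sequences that known regulators of autophagy bind. RefSeq windows on GRCh38.p14, from 250 bases before to 50 after a gene's start, matched 35 of the 40 genes with 43 windows. The letters searched on both strands were CACGTG, an E-box form bound by TFEB and TFE3, and its extension TCACGTGA, which contains it. The antioxidant response element of NRF2, TGACNNNGC, and the ATF4 element TGATGNAA were also searched. CACGTG was in 6.98% of the autophagy windows, 7.26% of all 35116 windows and 9.92% of the 11917 windows of tested genes. In the same order, TCACGTGA was in 2.33%, 0.980% and 1.84%, TGACNNNGC in 6.98%, 13.3% and 14.9%, and TGATGNAA in 0, 3.62% and 1.80%. A single autophagy window, that of ATG3, held TCACGTGA. Among the 8 called genes, BNIP3 held CACGTG at position -134 from its start and CALCOCO2 held TGACNNNGC on the reverse strand at -129. The stretches around these matches follow, with that of ATG3, the gene with TCACGTGA, and the matches are in capitals.
BNIP3: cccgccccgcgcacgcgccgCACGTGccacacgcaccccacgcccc
CALCOCO2: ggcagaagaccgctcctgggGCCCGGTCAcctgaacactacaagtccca
ATG3: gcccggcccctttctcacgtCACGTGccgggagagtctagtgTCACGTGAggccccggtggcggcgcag

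These stretches lie at chr10:131982032-131982077 (minus strand), chr17:48830886-48830934 (plus strand) and chr3:112561932-112562000 (minus strand). BNIP3 rose, CALCOCO2 fell and ATG3 was not called. A match describes the sequence and shows no binding.

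Genes outside the 40 were taken from 4 further lists of the pathway, with 65 genes of which 54 were tested, 13 higher and 7 lower. These are 37.0% of the tested further genes, against 29.5% of all tested genes. Under TPM 35 were higher and 4 lower, where 41.5% of all tested genes were higher and 6.41% lower. Among other core and membrane factors, 4 of 11 tested rose and 1 fell, beside 15.3% and 14.2% of all tested genes. VMP1, an ER scramblase needed for autophagosome formation, lay at 27.0, 29.02 and 30.9 FPKM with celastrol and 18.6, 22.7 and 20.8 with DMSO (log2 fold change 0.49, adjusted p = 0.00794). EI24, an ER protein that also takes part in autophagy, lay at 62.9, 63.6 and 62.7 FPKM against 47.2, 48.4 and 46.7 (log2 fold change 0.41, adjusted p = 0.00263). SH3GLB1, a membrane-bending partner of Beclin 1 and UVRAG, rose by 0.36 (adjusted p = 0.0376), a call lost under 7 of 16 alternatives (highest 0.111). ATG16L2, a paralog of ATG16L1, was the member that fell, from 7.78 ± 0.677 to 5.09 ± 0.614 FPKM (SD, n = 3; adjusted p = 0.00639).

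Fusion genes, which join autophagosomes to lysosomes, had 3 of 14 higher and 0 lower by limma, beside 15.3% and 14.2% of all tested genes. At an unadjusted p under 0.05 there were 5 higher and 0 lower, and the share of all tested genes at that threshold is not given here. The SNARE proteins VAMP8 and YKT6 rose by log2 fold changes of 0.36 and 0.39 (adjusted p = 0.00947 and 0.0217), and the HOPS tether subunit VPS39 by 0.31 (adjusted p = 0.0282). STX17, the autophagosomal SNARE, was at -0.10 (adjusted p = 0.448). YKT6 lost its call without celastrol replicate 2 or 3, without DMSO replicate 3 and with no filter (highest 0.0622). VPS39 lost it under 6 of 16 alternatives (highest 0.102).

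Other selective receptors and mitophagy factors had 3 of 12 tested higher and 1 lower, beside 15.3% and 14.2% of all tested genes. TBK1, a kinase that phosphorylates OPTN, CALCOCO2 and p62, lay at 12.1, 12.3 and 13.8 FPKM with celastrol and 7.16, 10.5 and 8.05 with DMSO (log2 fold change 0.59, adjusted p = 0.0175). The ER-phagy receptors SEC62 and TEX264 rose by 0.51 and 0.48 (adjusted p = 0.0275 and 0.0170). PHB2, an inner-membrane mitophagy receptor with other mitochondrial roles, fell from 111 ± 4.48 to 82.1 ± 2.73 FPKM (SD, n = 3; adjusted p = 0.00294). TBK1, SEC62 and TEX264 lost their calls without celastrol replicate 3 (0.0594, 0.0887 and 0.0526) and with no filter. TBK1 and SEC62 also lost them without DMSO replicate 3, and SEC62 without celastrol replicate 2.

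Upstream kinases and transcription factors had 3 of 17 tested higher and 5 lower, beside 15.3% and 14.2% of all tested genes. ZKSCAN3, a zinc finger protein known as a repressor of autophagy genes, lay at 7.81, 9.29 and 8.78 FPKM with celastrol and 5.11, 5.38 and 5.22 with DMSO (log2 fold change 0.71, adjusted p = 0.00134). FOXO3, a forkhead factor known to activate autophagy genes including BNIP3, lay at 6.51, 6.31 and 5.65 FPKM against 9.32, 9.44 and 9.11 (log2 fold change -0.59, adjusted p = 0.00203). MLST8, an mTOR complex subunit, and FLCN, a regulator of lysosomal nutrient signalling, fell by 0.48 and 0.44 on the log2 scale (adjusted p = 0.00595 and 0.0254), and FLCN lost its call under 6 of 15 alternatives (highest 0.135). TFEB, the lysosome and autophagy regulator, was at 0.263 to 0.458 FPKM and not tested. Its relative TFE3, chosen after its values were seen, was at 28.6 ± 1.5 against 22.1 ± 3.36 FPKM (adjusted p = 0.0396), a call lost under 7 of 16 alternatives (highest 0.111).

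**Figure D5:**
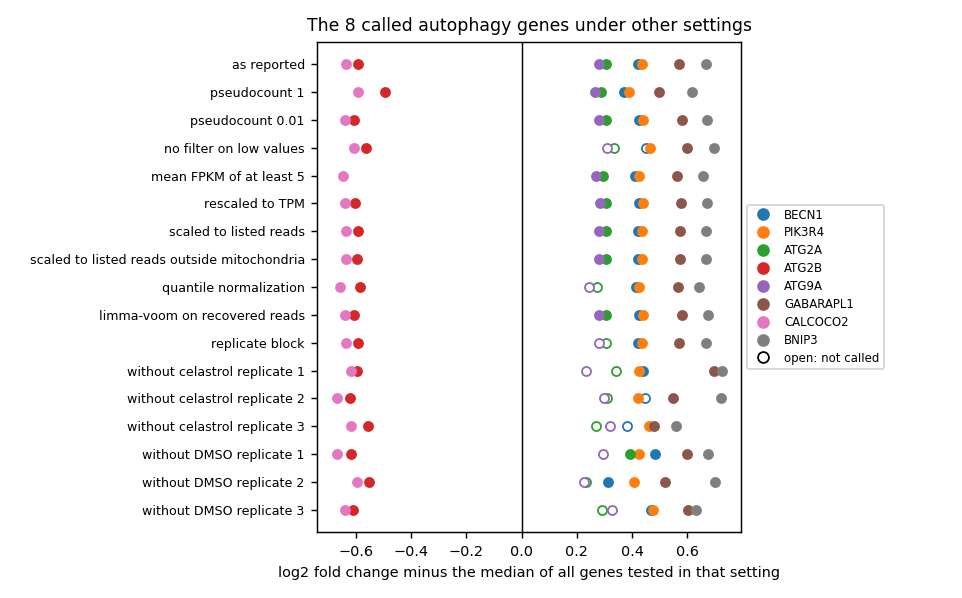
Log2 fold change of the 8 called autophagy genes as reported and under each alternative setting, each relative to the median of all genes tested in that setting; filled points have an adjusted p under 0.05 and open points do not. BNIP3, GABARAPL1, PIK3R4 and CALCOCO2 are filled in every row and ATG2B in every row where it was tested, while ATG2A, ATG9A and BECN1 are open in several.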

How the data were processed

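RNA sequencing values of 6 SKM-1 libraries were used, 3 with celastrol and 3 with DMSO. The deposited table gives FPKM with gene length, per gene. The submitters' processing notes name GRCh38, HISAT2 2.0.5 and featureCounts 1.5.0-p3; strandedness, counting settings and the library total: not given in the sources used here. Each of the 58735 genes matched GENCODE release 29 by identifier and position. The deposited length was the merged exon length of each of the 40 genes. Reads were recovered from FPKM times length, whose values above 0 came out as whole reads in 100% of cases (within 0.001 reads). The authors' total was 1.04 to 1.05 times the listed reads with celastrol and 0.963 to 0.994 times with DMSO; TMM factors of the recovered reads were 1.03 to 1.05 and 0.957 to 0.972.

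Tests used limma 3.58.1 in R 4.3.3 on log2(FPKM + 0.1), which understates changes of low genes, with a mean of at least 1 FPKM and treatment as the single term, two-sided, at an adjusted p of 0.05. Folds are ratios of mean FPKM; log2 fold changes, SE and 95% intervals are from limma. The fit was tested on simulated data. The 40 genes, the further lists and the motifs were chosen with earlier results of these data known. Genes named are all 40, up to 4 called genes of each further list by size of change, and those stated in the text to be picked once values were known. Alternatives were 2 pseudocounts (1 and 0.01), no filter, a minimum mean of 5 FPKM, TPM, scaling to listed reads with and without mitochondrial genes, quantile normalization, limma-voom on recovered reads, a replicate block, and leaving out each of the 6 libraries.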

Additional observations from a re-analysis of the deposited data

How the results depend on the processing

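Over 16 alternatives, 504 of 584 log2 fold changes of the tested autophagy genes kept their direction and their side of the threshold, 32 passed it newly, 20 no longer passed and 28 changed direction; no called gene changed direction. TPM gave 5266 genes higher and 813 lower, 20 autophagy and 35 further genes higher, 4 further genes lower and an autophagy median of 0.35. Scaling to listed reads gave 3024 genes, 11 autophagy and 20 further genes higher and a median of 0.21. With no filter on low values, which tests 31741 genes, 3 autophagy and 4 further genes were higher, as were 4.14% of all genes. With a minimum mean of 5 FPKM, which removes ATG2B, 8 autophagy genes were higher and 1 lower. Of all genes tested there, 20.8% were higher and 17.5% lower. Leaving out each library gave 1119 to 1948 genes higher and 1003 to 1766 lower, 3 to 6 autophagy genes higher and 2 to 4 lower, and 4 to 11 further genes higher and 4 to 7 lower.

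Genes that were not called changed direction as follows. Under TPM, ULK1 was at 0.077, RB1CC1 at 0.23, ATG13 at 0.12, AMBRA1 at 0.0042, WIPI1 at 0.13, ATG10 at 0.079, MAP1LC3B at 0.22 and NBR1 at 0.17. Scaled to listed reads, RB1CC1 was at 0.088, MAP1LC3B at 0.072 and NBR1 at 0.032. Without mitochondrial reads in the total, RB1CC1 was at 0.029 and MAP1LC3B at 0.013. Leaving out single libraries gave -0.12 to 0.060 for RB1CC1, -0.023 to 0.11 for PIK3C3, -0.025 to 0.10 for ATG3, -0.048 to 0.16 for ATG4A, -0.13 to 0.22 for ATG4C, -0.031 to 0.18 for ATG12, -0.10 to 0.040 for MAP1LC3B and -0.11 to 0.28 for SQSTM1. The causes of these shifts beyond the change of total, genes or libraries were not tested.

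Libraries with the same replicate number did not clearly deviate together (correlations across genes of -0.0156, -0.0326 and 0.0339 for numbers 1 to 3). Celastrol replicates 1 and 2 each correlated best with another number, and celastrol replicate 3 with its own. Correlations this small cannot show whether equal numbers share a culture or day, which the labels do not state. With a replicate block, 1776 genes were higher and 1617 lower, as were 4 and 2 autophagy genes, without ATG2A and ATG9A. Depth limits GABARAP and MAP1LC3B2, with as few as 15 and 43 reads.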
